A study of Mus musculus with 24 samples.

Results

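The glucocorticoid receptor gene Nr3c1 and 9 genes known as targets of the receptor, Fkbp5, Tsc22d3, Zbtb16, Klf9, Klf15, Cebpb, Cebpd, Lpin1 and Errfi1, were followed in kidney RNA from mice with and without water. They were chosen by gene name, and all 10 were among the 19399 genes of the table and among the 17592 that passed the filter on low values. The mice were C57BL/6J, an inbred strain, aged 10 weeks, with food always available. The 4 groups were 6 females with water (watered females), 5 females without it (deprived females), 6 males with water and 7 males without it. Water had been withheld for 9 to 11 h before kidneys were taken around midnight (1 h on either side), which is 6 h after the start of the active phase. The labels also put the removal of water at 3 pm, which does not fully match these hours. No transgene, deletion or drug was involved, and the watered mice of the same sex were the only controls. Each library came from polyadenylated RNA of 1 mouse.

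Glucocorticoids, corticosterone in mice, are steroid hormones of the adrenal cortex that are released in a daily rhythm and under stress. They bind the receptor in the cytoplasm, where it is held by the Hsp90 chaperone complex, and the receptor then moves to the nucleus and binds DNA at a palindrome of hexamers. In the kidney the hormone acts along the nephron, and in the distal nephron it is inactivated by the enzyme encoded by Hsd11b2, which keeps it from the mineralocorticoid receptor. Corticosterone levels were not analysed here.

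RefSeq promoter windows on GRCm38.p6 ran from 250 bases before to 50 bases after a transcript start. Of the 10 genes 7 were searched, in 10 windows of 300 bases. No window of Nr3c1, Zbtb16 or Cebpd was searched, so their promoters are not covered here. The hexamer AGAACA of the receptor element, or its reverse complement TGTTCT, was searched on both strands, and so was the whole element, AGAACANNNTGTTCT. The hexamer lay in 1 window each of Tsc22d3 and Lpin1, while 19.0% of the 32851 promoter windows of all genes held it. The whole element was in none of the 10 windows of the 7 members searched. It was in 3 of the 32851 windows, 0.00913%, of which 1 belongs to Sgk1, a target gene described with Tsc22d3. The E-box CACGTG, which clock and Myc factors are known to bind, was in windows of Fkbp5 and Klf15 and in 7.15% of all windows. The 4 windows shown are those of Tsc22d3 (chrX:140600473-140600772, minus strand), Lpin1 (chr12:16610917-16611216, minus strand), Fkbp5 (chr17:28486100-28486399, minus strand) and Sgk1 (chr10:21993640-21993939, plus strand). They were picked because the first 3 genes carry the main results and Sgk1 holds the whole element. Capitals mark the hexamers, the element and the E-box, and in Sgk1 an E-box overlaps a hexamer.
Tsc22d3: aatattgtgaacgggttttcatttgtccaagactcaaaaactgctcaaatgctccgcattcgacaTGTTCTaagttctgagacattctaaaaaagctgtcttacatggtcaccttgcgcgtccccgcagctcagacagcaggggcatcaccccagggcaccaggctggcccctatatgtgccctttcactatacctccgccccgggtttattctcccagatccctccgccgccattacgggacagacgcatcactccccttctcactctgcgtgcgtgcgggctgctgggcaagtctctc
Lpin1: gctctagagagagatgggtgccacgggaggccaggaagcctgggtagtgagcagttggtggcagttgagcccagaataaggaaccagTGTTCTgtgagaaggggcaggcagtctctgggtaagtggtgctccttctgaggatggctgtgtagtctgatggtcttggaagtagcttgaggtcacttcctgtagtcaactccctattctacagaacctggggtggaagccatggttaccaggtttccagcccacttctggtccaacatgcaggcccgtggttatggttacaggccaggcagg
Fkbp5: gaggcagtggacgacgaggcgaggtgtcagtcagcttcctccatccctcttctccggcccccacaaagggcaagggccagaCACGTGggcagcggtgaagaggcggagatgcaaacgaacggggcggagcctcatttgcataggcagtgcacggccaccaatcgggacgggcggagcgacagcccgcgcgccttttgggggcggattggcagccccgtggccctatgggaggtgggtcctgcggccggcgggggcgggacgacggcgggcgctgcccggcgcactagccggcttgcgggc
Sgk1: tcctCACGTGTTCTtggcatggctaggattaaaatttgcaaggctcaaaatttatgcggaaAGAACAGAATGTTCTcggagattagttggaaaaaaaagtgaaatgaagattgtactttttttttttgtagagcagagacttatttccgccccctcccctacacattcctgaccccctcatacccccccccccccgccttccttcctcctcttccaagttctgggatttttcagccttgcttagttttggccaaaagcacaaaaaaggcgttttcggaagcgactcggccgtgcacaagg
The first base of the hexamer lay 185 bases before the start in Tsc22d3, at -185, and at -163 in Lpin1. The E-box of Fkbp5 began at -169, and the whole element of Sgk1 at -189. A match of letters is no evidence of binding, and its absence from these windows says nothing of elements elsewhere.

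The recovered reads summed to 14411843 to 29398960 per library, and a member had between 104 reads, for Cebpd, and 15604 reads, for Errfi1, in a library. The unnamed gene ENSMUSG00000119584 took 1.07 to 2.86% of the reads in 4 libraries and at most 0.85% in the other 20. The 4 were deprived males 6 and 7, deprived female 1 and watered female 6. Values without these 4 are given where leaving them out ends a call. The title of deprived female 5 places the mouse among the deprived, whereas its treatment label describes free access to water; it stayed in the deprived group here, and the effect of counting it as watered is given for the calls that this ends. The 10 proximal tubule markers were all in the table, with Slc34a1, the main phosphate transporter of that segment, at a median of 124900 normalized counts. Of 8 adrenal cortex markers only Star and Akr1b7 were in the table, and Cyp11a1, Cyp11b1, Cyp11b2, Cyp21a1, Hsd3b1 and Mc2r were not. These are bulk samples, in which fewer cells of a type and less RNA per cell cannot be told apart.

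Per kilobase of exon, Errfi1 was the most abundant member in each group and Klf9 and Klf15 came next. Errfi1, which encodes an inhibitor of the EGF receptor (chromosome 4, 150853919 to 150868892, plus strand), had 2805 ± 237 normalized counts per kilobase (SD, n = 6) in watered females and 3200 ± 636 (n = 6) in watered males. Klf9, a Krüppel-like transcription factor (chromosome 19, 23141226 to 23168134, plus strand), had 827 ± 94.8 in watered females and 821 ± 101 in watered males. Klf15, a Krüppel-like factor of amino acid and glucose metabolism (chromosome 6, 90462576 to 90475238, plus strand), had 630 ± 53.2 and 798 ± 68.3 in these groups. In watered males the ranges of Klf9 and Klf15 overlapped, and in watered females they did not. The lowest places were held by Zbtb16 in females, with 83.7 ± 46.6 when watered, and by Cebpd in males, with 38.95 ± 7.06 when watered. Among the middle places the ranges of neighbours mostly overlapped. With the length of the longest transcript in place of the union of exons, 5 of the 10 genes kept their place in watered females, 5 in deprived females, 6 in watered males and 5 in deprived males, while Errfi1 stayed first in all 4 groups. By that length Fkbp5 took place 2 in watered males and Klf9 place 4.

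**Figure D1:**
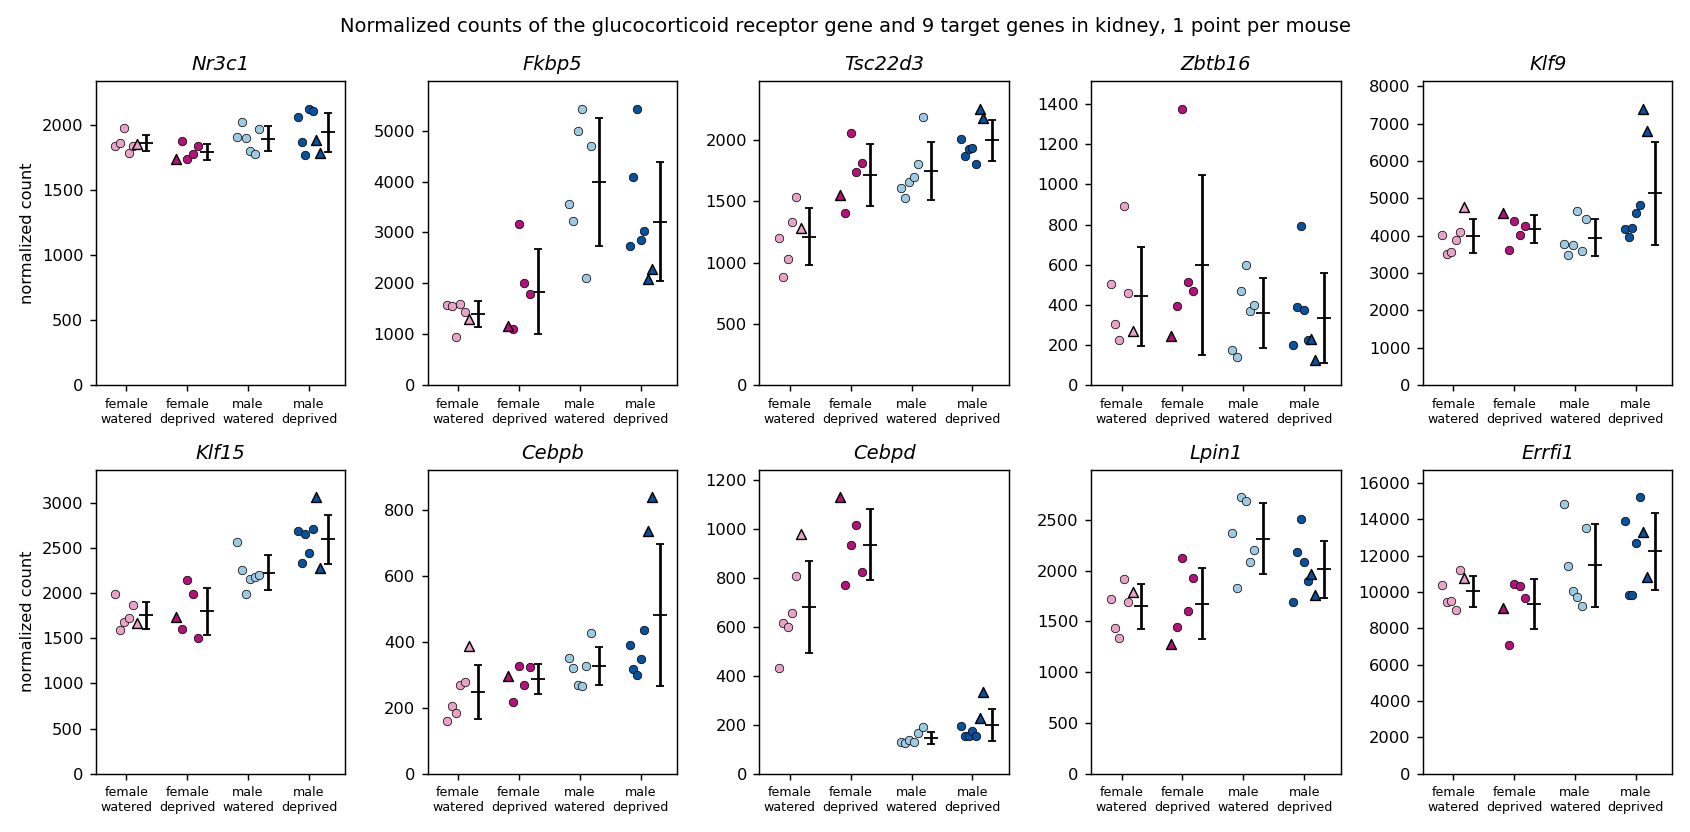
Normalized counts (y axis, linear, from 0) of the 10 genes in each mouse, by group; circles and triangles are mice, triangles mark the 4 libraries that stand apart, and the bar beside each group is the mean ± SD. Cebpd lay between 431 and 1128 in females and between 125 and 332 in males, and in deprived females 4 of 5 mice had more Tsc22d3 than any watered female.

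The receptor itself was the steadiest of the 10. Nr3c1 (chromosome 18, 39410545 to 39519421, minus strand) ranged from 1784 to 1980 normalized counts in watered females, with a median of 1849, and from 1737 to 1880 in deprived females. In males it ranged from 1776 to 2021 with water, with a median of 1902, and from 1766 to 2126 without water, with a median of 1885. The groups overlapped in each comparison, and the SD within a group was 3.47 to 7.88% of its mean, less than for any other member in the same group. The log2 change with deprivation was -0.05 in females, with a 95% interval (normal, from the SE) of -0.16 to 0.05, and 0.03 in males, with an interval of -0.07 to 0.13. Neither passed the test, with adjusted p of 0.883 and 0.779 in limma.

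Tsc22d3 was the 1 member called with water deprivation in the main limma fit, and some alternative fits called others as well, such as Cebpd. It encodes GILZ, a leucine zipper protein known for anti-inflammatory actions of glucocorticoids and, in the collecting duct, for promoting sodium uptake (chromosome X, 140539528 to 140600659, minus strand). In the watered females it had 1199, 881, 1029, 1330, 1538 and 1281 normalized counts in mice 1 to 6, with a mean of 1210 ± 232 (SD, n = 6). The deprived females had 1550, 1400, 2060, 1741 and 1814, with a mean of 1713 ± 253 (n = 5). So 4 of 5 deprived females lay above the highest watered female, and deprived female 2 lay within the watered range. The rise was 0.51 ± 0.12 on the log2 scale (SE), a 1.43-fold change, with an adjusted p of 0.0281 in limma. Across all tested genes 0.79% were called in females, 139 in all, and of the members 1 of 10 was.

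In males Tsc22d3 ranged from 1524 to 2186 with water and from 1802 to 2256 without, with medians of 1679 and 1932. Only 1 of 7 deprived males exceeded the highest watered male, watered male 6, though the lowest deprived male lay above 4 of the 6 watered ones. The male log2 difference was 0.20 ± 0.11 with an adjusted p of 0.465. The responses of the sexes were compared directly: the male response minus the female one was -0.31 ± 0.16, with an adjusted p of 0.707. As a mean of both sexes Tsc22d3 rose by 0.35 ± 0.08, 1.28-fold, with an adjusted p of 0.0164. In that mean 1.64% of all genes were called.

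The female call depended on single mice and on the fit. Without watered female 1, 2 or 3 its adjusted p was 0.0519, 0.0866 or 0.0722, and without deprived female 3, 4 or 5 it was 0.105, 0.0788 or 0.0971, while the log2 change stayed between 0.43 and 0.51 in these 6 fits. With the females fitted alone it was 0.51 with an adjusted p of 0.0808. With deprived female 5 counted as watered, the female change was 0.40 with an adjusted p of 0.453, and the mean change was 0.30 with an adjusted p of 0.142. The call on the mean of both sexes held when any single library was left out, and without the 4 libraries that stand apart it was 0.35 with an adjusted p of 0.0353.

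Cell type markers moved with the female comparison. The summed level of the 9 endothelial markers was 12830 to 14450 in watered and 14860 to 16690 in deprived females, with no overlap. Of these 9 genes 0 were called (limma), but 9 of 9 were above 0 on the log2 scale, with a median of 0.21. The 7 principal cell markers summed to 16080 to 22020 in watered and 22170 to 26190 in deprived females, while of the 6 tested 3 were above 0 on the log2 scale, with a median of -0.01. The 2 called higher were Aqp2 and Aqp3, the water channels of vasopressin action, and the 1 called lower was Hsd11b2, described with hormone supply. The 10 proximal tubule markers summed to 239400 to 268000 in watered and 184500 to 250700 in deprived females, with 2 called lower and 1 of 10 above 0. The 9 stromal and smooth muscle markers summed to 4741 to 6529 and 6202 to 8273, with 2 called higher and 8 of 9 above 0, at a median of 0.227. In males the endothelial sums overlapped, at 11510 to 13370 and 12150 to 13400, with 7 of 9 markers above 0. Those of principal cells did not overlap in males, at 14310 to 16360 and 19960 to 27940, with 2 of 6 markers above 0, both called higher. Their part in the Tsc22d3 result was not tested.

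No member was called in males, where 0.227% of all genes were (40 genes in limma). At an unadjusted p under 0.05 there were 4, Klf9, Klf15, Cebpb and Cebpd, with each of limma, edgeR and DESeq2, and none passed adjustment in any of the 3. Of the 17592 tested genes, 2041 had such a p in males with limma. The median log2 change over the 10 members was 0.17 in females and 0.15 in males, beside -0.017 and -0.0037 over all tested genes. In neither sex did any member separate the deprived from the watered mice without overlap, which 2.48% of all genes did in females and 0.529% in males. No member was called for a difference in response between the sexes, and none had an unadjusted p under 0.05 with limma, edgeR or DESeq2. Of all genes 0% were called in limma, with 1248 genes at an unadjusted p under 0.05. For the same difference over all genes edgeR called 0 and DESeq2 called 30.

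**Figure D2:**
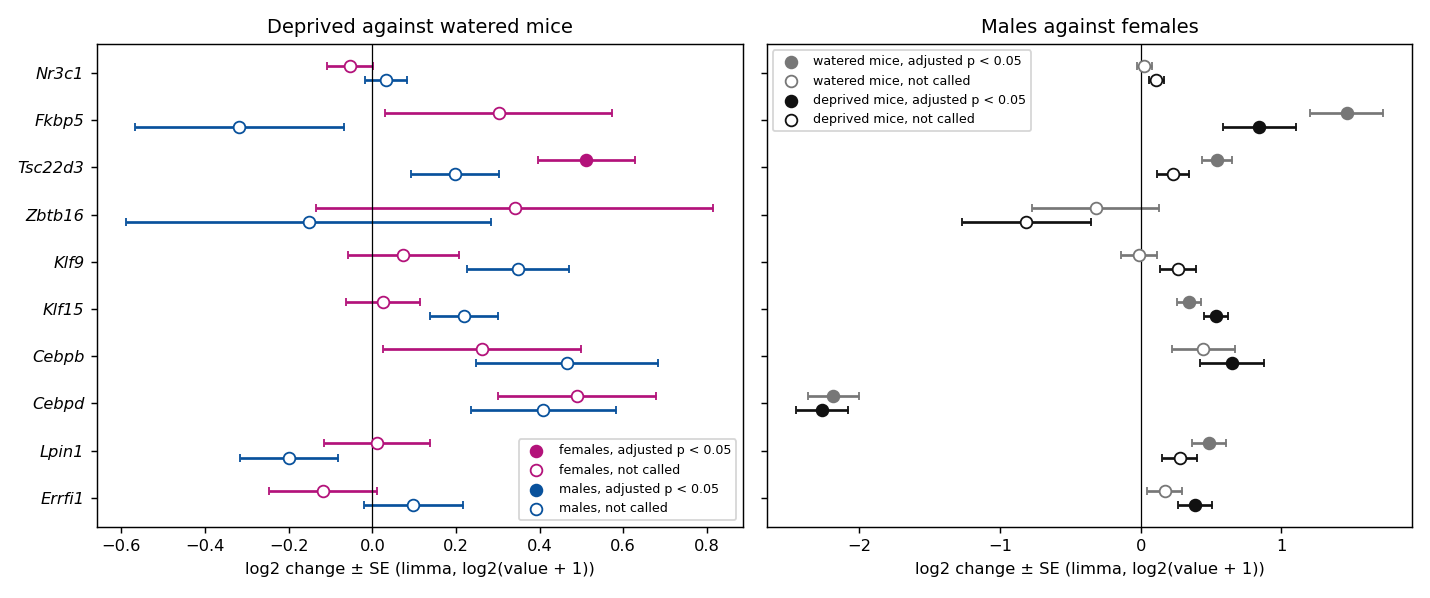
Log2 change ± SE of each member from limma on log2(value + 1), deprived against watered mice on the left (females and males) and males against females on the right (watered and deprived mice); filled points have an adjusted p under 0.05. On the left only Tsc22d3 in females, at 0.51, is filled, and on the right Cebpd stands at -2.19 and -2.27.

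The C/EBP pair, Cebpb and Cebpd, are leucine zipper transcription factors known from the acute phase response and fat cell differentiation. Cebpd (chromosome 16, 15887286 to 15891031, plus strand) had 431, 614, 599, 656, 809 and 979 normalized counts in the watered females and 1128, 771, 934, 1016 and 824 in the deprived ones. Of the deprived females 2 of 5 exceeded the highest watered mouse, watered female 6, which is a library that stands apart. In males Cebpd ranged from 125 to 191 with water and from 152 to 332 without, and 3 of 7 deprived males exceeded the watered range. The log2 difference was 0.49 ± 0.19 in females and 0.41 ± 0.17 in males, and 0.45 ± 0.13 as a mean of both, with adjusted p of 0.334, 0.367 and 0.079. The mean was called by DESeq2, with an adjusted p of 0.0279, and by limma without the 4 libraries, at 0.37 with an adjusted p of 0.0322, or without watered female 6 alone, at 0.51 with 0.0343.

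Cebpb (chromosome 2, 167688915 to 167690418, plus strand) had 160 to 386 normalized counts in watered and 219 to 327 in deprived females, and 266 to 426 in watered males. The deprived males had 390, 318, 300, 350, 434, 737 and 838. The top pair there is deprived males 6 and 7, which both stand apart. The male log2 difference was 0.47 ± 0.22 with an adjusted p of 0.414, and 0.14 without the 4 libraries. Exons of Cebpb overlap Tmem189 on the opposite strand, and those of Cebpd overlap Spidr. Whether counting used the strand is not known, and if it did not, reads of these overlaps could not be assigned to 1 gene.

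Klf9 showed the same pair of mice on top. It had 3515 to 4777 normalized counts in watered females, 3615 to 4599 in deprived females and 3481 to 4661 in watered males. The deprived males had 4176, 3971, 4206, 4597, 4830, 7404 and 6807, with the last pair again deprived males 6 and 7. The male log2 difference was 0.35 ± 0.12 with an adjusted p of 0.267, and 0.15 without the 4 libraries. The immune cell markers summed to 809.7 to 1167 in watered males and reached 2185 in a deprived male; their part in these values was not tested.

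Klf15 in the deprived males ranged from 2278 to 3062 normalized counts, with a median of 2652, against 1994 to 2572 in watered males, so that 4 of 7 exceeded the watered range. Its log2 difference was 0.22 ± 0.08 with an adjusted p of 0.298. In females the ranges were 1592 to 1995 and 1505 to 2142. Errfi1 had log2 differences of -0.12 ± 0.13 in females and 0.10 ± 0.12 in males, with adjusted p of 0.892 and 0.717.

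Fkbp5, Zbtb16 and Lpin1 went together from mouse to mouse, and none was called with deprivation. Fkbp5, a cochaperone that lowers the affinity of the receptor for its hormone and is itself induced by it (chromosome 17, 28399094 to 28517527, minus strand), had 1577, 1560, 942, 1596, 1446 and 1293 normalized counts in watered females. The deprived females had 1157, 1095, 3164, 1998 and 1781, so 3 of 5 lay above all watered ones and the others lay within their range. Watered males ranged from 2106 to 5430 and deprived males from 2086 to 5435, with medians of 4127 and 2850. The log2 differences were 0.30 ± 0.27 in females and -0.32 ± 0.25 in males, and the difference between these, -0.62 ± 0.37, had an adjusted p of 0.758. Their 95% intervals ran from -0.23 to 0.83 and from -0.81 to 0.17.

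Zbtb16, a zinc finger transcriptional repressor also called PLZF (chromosome 9, 48654297 to 48836222, minus strand), had the widest spread of the 10, with an SD of 48.8 to 74.7% of the mean. The deprived females had 242, 394, 1378, 513 and 467 normalized counts, beside 224 to 893 in the watered ones. The deprived males had 202, 391, 794, 373, 225, 231 and 126, beside 139 to 598 in watered males. Deprived female 3 and deprived male 3 were far above the rest of their groups. The log2 differences of 0.34 ± 0.47 and -0.15 ± 0.44 were smaller than their errors, and the male one was 0.14 without the 4 libraries.

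Lpin1, a phosphatidate phosphatase that also acts as a transcriptional coactivator (chromosome 12, 16535669 to 16610966, minus strand), had 1340 to 1914 normalized counts in watered and 1281 to 2122 in deprived females. In males it had 1830 to 2722 with water and 1690 to 2508 without. The highest deprived female and the highest deprived male were again number 3 of each group. Its log2 differences were 0.01 ± 0.13 and -0.20 ± 0.12, with adjusted p of 0.995 and 0.495.

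The members were compared between the sexes as well, the comparison in deprived mice having been added after the values were seen. In watered mice 5 of 10 were called, beside 30.5% of all genes, and 2 of 10 had groups without overlap, beside 22.4% of all genes. In deprived mice 5 of 10 were called, beside 33.1% of all genes, and 2 of 10 did not overlap, beside 15.5%. Cebpd was lower in males by 2.19 ± 0.18 on the log2 scale in watered mice, 4.55-fold, with an adjusted p of 3.67e-10, and by 2.27 ± 0.18 in deprived mice, with an adjusted p of 2.58e-10 (limma). Its lowest female, at 431, lay above its highest male, at 332.

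Higher in watered males were Fkbp5, by 1.47 ± 0.26 with an adjusted p of 9.3e-05, Tsc22d3, by 0.54 ± 0.11 with 0.000358, Lpin1, by 0.49 ± 0.12 with 0.00279, and Klf15, by 0.34 ± 0.08 with 0.00245. Each watered male had more Fkbp5 than any watered female, and 5 of 6 had more Tsc22d3, Klf15 and Lpin1. In deprived mice Fkbp5 was 0.85 ± 0.26 higher in males, Klf15 0.54 ± 0.09, Cebpb 0.65 ± 0.23 and Errfi1 0.39 ± 0.12, with adjusted p of 0.0151, 1.83e-05, 0.0304 and 0.0177. Without the 4 libraries Cebpb was 0.34 higher with an adjusted p of 0.134 and Errfi1 0.39 with 0.0736. Without deprived female 2 the calls of Fkbp5, Cebpb and Errfi1 were lost, with adjusted p of 0.06, 0.0937 and 0.084. The call of Fkbp5 was also lost without deprived female 1 (0.0533), and that of Cebpb without deprived female 4 (0.0607), deprived male 6 (0.0708) or deprived male 7 (0.0727). The proximal tubule markers summed to 290800 to 345100 in watered males and 239400 to 268000 in watered females, but 5 of 10 were above 0 on the log2 scale, with a median of -0.03, 4 called higher and 1 lower. The largest of these differences was 8.07, for Slc7a13. The part of the markers in these differences was not tested.

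To see which members go up and down together from mouse to mouse, each value was taken on the log2(value + 1) scale as its deviation from the mean of its group, over the 24 mice, and the 45 pairs of members were correlated. The mice share 1 normalization, and p-values came from 100000 permutations of mice within groups, two-sided, adjusted over the 45 pairs. By Pearson's r 9 pairs passed, all positive, by Spearman's rho 10 passed, and 9 passed by both. Without the 4 libraries that stand apart 9 pairs passed, of which 6 were in the first 9. Here the group means were taken anew over the mice left. Where the mice farthest out for a gene were left out, deviations still came from the means of all 24 mice, so these r are not directly comparable. The pairs form 1 trio of Fkbp5, Zbtb16 and Lpin1, and 1 group of Cebpb, Cebpd, Klf9 and Tsc22d3, with Klf15 and Errfi1 as a pair. No pair between the trio and that group passed, and Fkbp5 and Tsc22d3 had r of 0.225 with an adjusted permutation p of 0.474. In deprived males Fkbp5 and Cebpb had r of -0.823 (exact permutation p 0.00635, unadjusted), beside 0.0619 in watered females and -0.222 in watered males. Without the 4 libraries r of Fkbp5 and Cebpb was 0.0532 over 20 mice.

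**Figure D3:**
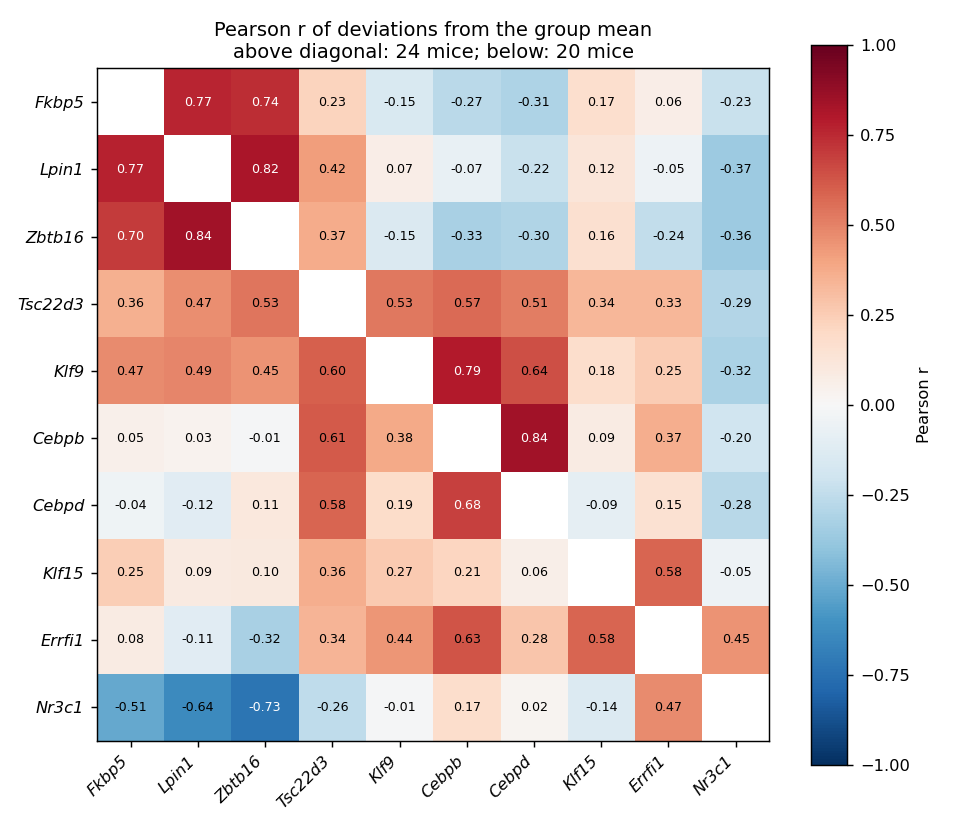
Pearson r between the members' log2 deviations from their group means, in 24 mice above the diagonal and in the 20 mice without the libraries that stand apart beneath it; red is positive and blue negative. Fkbp5, Lpin1 and Zbtb16 stay together in both triangles, whereas Klf9 and Cebpb fall from 0.79 to 0.38.

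Zbtb16 and Lpin1 had a Pearson r of 0.818 (permutation p 4e-05, adjusted 0.0009) and a rho of 0.806 (permutation p 5e-05, adjusted 0.00195). Without the mice farthest out for Zbtb16, deprived female 3 and deprived male 3, r was 0.747, and without the 4 libraries it was 0.842. Fkbp5 and Lpin1 had r of 0.765 (permutation p 0.00022, adjusted 0.0033) and rho of 0.767 (permutation p 0.00022, adjusted 0.00247), with r of 0.743 without the mice farthest out for Fkbp5, deprived female 3 and watered male 5. Fkbp5 and Zbtb16 had r of 0.741 (permutation p 0.00031, adjusted 0.00349) and rho of 0.747 (permutation p 0.00013, adjusted 0.00195), with r of 0.805 without deprived female 3 and watered male 5. Within groups the r of Zbtb16 and Lpin1 was 0.752 in watered females, 0.699 in watered males and 0.942 in deprived males, with exact permutation p of 0.0639, 0.161 and 0.00516. Of all tested genes, 0.0114% had as high an r to Lpin1 as Zbtb16 had, counting Zbtb16 and Lpin1 themselves. Counted the same way, 0.0341% had as high an r to Zbtb16 as Lpin1 had.

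Cebpb and Cebpd had r of 0.843 (permutation p 3e-05, adjusted 0.0009) and rho of 0.77 (permutation p 0.0001, adjusted 0.00195). Without deprived males 6 and 7, and with the group means of all 24 mice kept, r was 0.793. Without the 4 libraries, with new group means, it was 0.681. Its exact permutation p was 0.00278 in watered females, where r was 0.944, 0.192 in watered males, where r was 0.681, and 0.0123 in deprived males, where r was 0.899. Klf9 and Cebpb had r of 0.791 and rho of 0.725, with adjusted permutation p of 0.0054 and 0.00504, and Klf9 and Cebpd r of 0.644 and rho of 0.577, with 0.0187 and 0.0381. Both rested on the 4 libraries: without them r was 0.381 and 0.186, with adjusted permutation p of 0.247 and 0.679. Without watered female 6 alone, Klf9 and Cebpd had an adjusted permutation p of 0.0509.

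Tsc22d3 had the highest mean r to the other 9 members, 0.333, and Nr3c1 the lowest, -0.184. Tsc22d3 went with Klf9 at r of 0.525 and rho of 0.63, with adjusted permutation p of 0.0081 and 0.00534, and with Cebpb at r of 0.57 and rho of 0.669, with 0.0148 and 0.00534. Without the 4 libraries these were 0.601, which passed with 0.0286, and 0.61, which did not, with 0.0925. With Cebpd it passed by rho alone, at 0.604 with an adjusted permutation p of 0.0179. Klf15 and Errfi1 had r of 0.58 and rho of 0.618, with adjusted permutation p of 0.026 and 0.0179, and the Pearson call was lost without watered male 1 (0.105), deprived female 3 (0.0542), deprived female 4 (0.0569) or deprived male 2 (0.056).

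Nr3c1 had no positive relation to its targets that passed. Over 24 mice its r to Zbtb16 was -0.363 and to Lpin1 -0.366, with adjusted permutation p of 0.278 and 0.257. Without the 4 libraries they were -0.729 and -0.637, with 0.0109 and 0.0286. Cebpb and Errfi1, with r of 0.367 in all mice, also passed in the 20, with r of 0.627 and 0.0265. Without deprived male 7 alone Nr3c1 and Zbtb16 passed at -0.559, and Cebpb and Errfi1 at 0.533, with an adjusted permutation p of 0.0326 each.

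**Figure D4:**
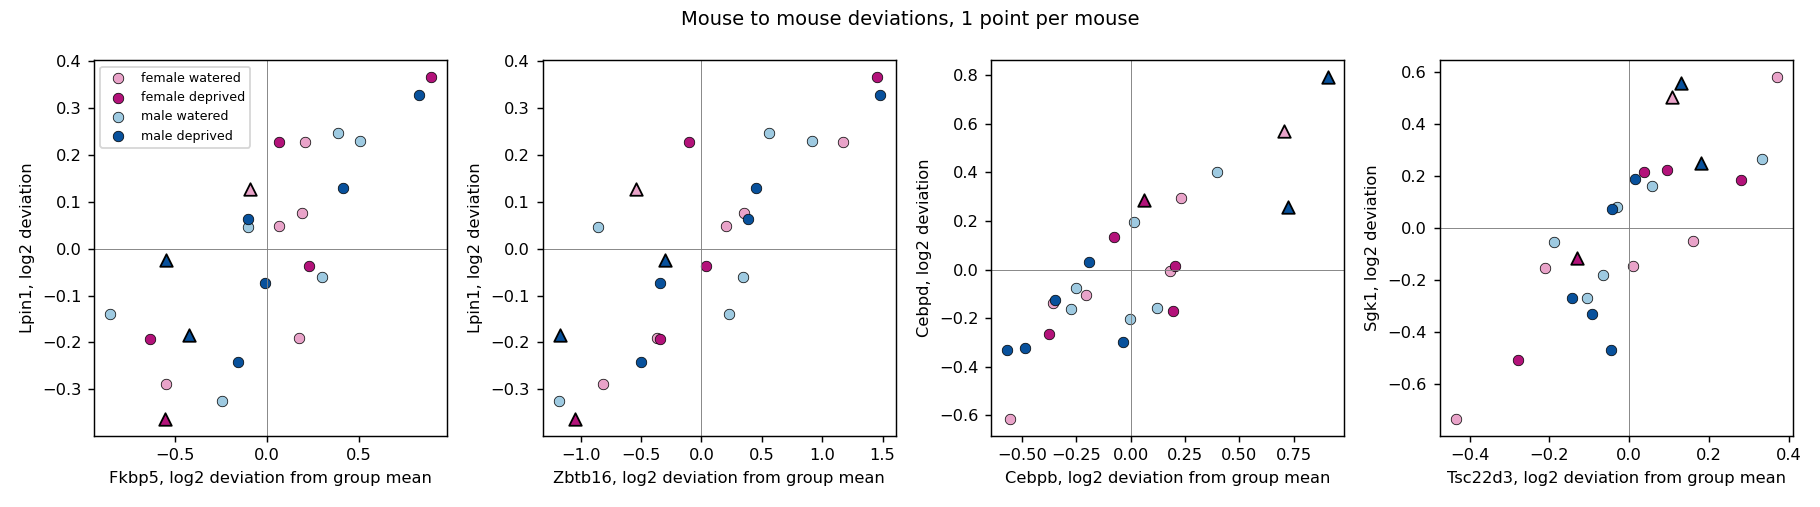
Log2 deviation of each mouse from its group mean for 4 pairs of genes, 1 point per mouse, coloured by group, with triangles for the 4 libraries that stand apart. Lpin1 moves with Fkbp5 (r 0.765) and Zbtb16 (r 0.818), Cebpd with Cebpb (r 0.843), and Sgk1 with Tsc22d3 (r 0.812).

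The genes most like Fkbp5 across the 24 mice were Slc16a14, Osbpl9, Acot11, Zfp35 and Mb21d2, with Pearson r of 0.853, 0.846, 0.838, 0.820 and 0.819. Those most like Tsc22d3 were Sgk1, Cdkn1a, Plk3, 3110057O12Rik and Sult1a1, with r of 0.812, 0.774, 0.750, 0.732 and 0.729. The first 2 and Sult1a1 were on the list of other glucocorticoid targets. These are the top of all tested genes, so the values describe the ranking and carry no test.

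Of 28 other known targets of the receptor 27 were tested, Tat not being among the genes of the table. This list, like the other gene lists here, was chosen with earlier results of these data known. Its counts therefore describe the list and are no independent test of it. With deprivation, 4 of 27 were higher as a mean of both sexes and none was lower, beside 1.64% of all genes called in either direction, and the median log2 change was 0.14, beside -0.01 over all genes. The 4 were Sgk1, a kinase that raises sodium channels at the membrane, by 0.64 ± 0.13, Cdkn1a, the cell cycle inhibitor p21, by 0.66 ± 0.16, Dusp1, a MAP kinase phosphatase, by 0.48 ± 0.12, and Rasd1, a Ras-like protein known from dexamethasone treatment, by 0.72 ± 0.19. Their adjusted p in limma were 0.0133, 0.0284, 0.0439 and 0.0487. In each sex alone none of the 27 was called by limma, with 7 in females and 10 in males at an unadjusted p under 0.05, and DESeq2 called 0 and 4. Of all 17592 tested genes, 1711 in females and 2041 in males had such a p in limma. Among the 7, Pck1 and Pdk4 were lower with deprivation, and among the 10, Arrdc2, Bcl6 and Glul were lower.

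Sgk1 (the promoter window with the whole element) had 2104, 2439, 2236, 2678, 2832 and 3042 normalized counts in watered males and 4946, 3452, 3136, 4570, 3599, 5155 and 6394 in deprived males. These did not overlap, which held for 0.529% of all genes in males, and the log2 difference of 0.78 ± 0.18 had an adjusted p of 0.0755. In females it ranged from 2790 to 6925 with water and from 4598 to 7629 without, and these overlapped. The mean change kept its call when any single library was left out, and with deprived female 5 counted as watered it was 0.56 with an adjusted p of 0.0822. Cdkn1a kept its call in 18 of 24 such fits, and Dusp1 and Rasd1 in 7 each, with adjusted p up to 0.0614, 0.0998 and 0.105. Without the 4 libraries that stand apart the calls of Cdkn1a, Dusp1 and Rasd1 were lost, with adjusted p of 0.058, 0.0646 and 0.0927, and with deprived female 5 as watered they were lost with 0.0918, 0.201 and 0.142. In edgeR Dusp1 and Rasd1 had an adjusted p of 0.0547 each.

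**Figure D5:**
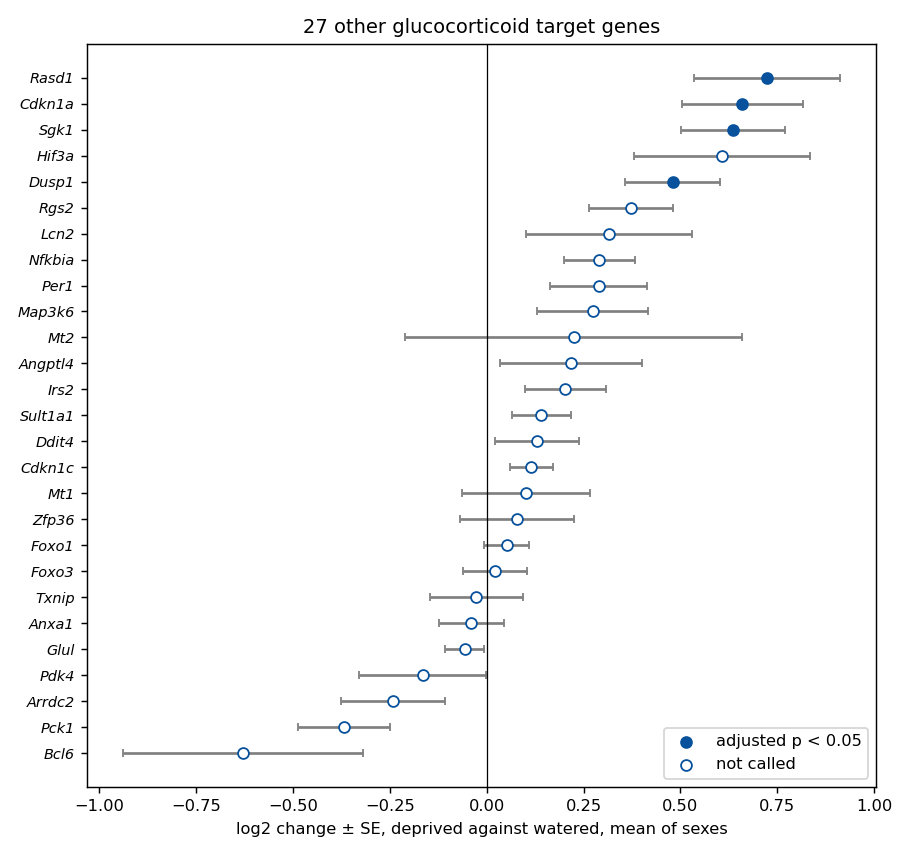
Log2 change ± SE with deprivation, as the mean of both sexes (limma), for the 27 other glucocorticoid target genes, sorted by size; filled points have an adjusted p under 0.05. The filled genes are Rasd1 (0.72), Cdkn1a (0.66), Sgk1 (0.64) and Dusp1 (0.48), and 20 of 27 lie above 0.

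Among 8 genes of hormone supply and the mineralocorticoid receptor, both hydroxysteroid dehydrogenases were called in females. Of all tested genes, 0.79% were called in females and 2.48% separated the deprived from the watered females without overlap. Hsd11b1, whose enzyme regenerates active corticosterone, had 866 to 1234 normalized counts in watered and 1296 to 1729 in deprived females, without overlap, and rose by 0.49 ± 0.11 with an adjusted p of 0.0296. Hsd11b2, whose enzyme inactivates it, had 3993 to 4366 and 3157 to 3757, without overlap, and fell by 0.28 ± 0.07 with an adjusted p of 0.0437. In males their log2 differences were -0.08 ± 0.10 and -0.08 ± 0.06, and the differences between the sexes had adjusted p of 0.251 and 0.688. As a mean of both sexes Hsd11b2 fell by 0.18 ± 0.05 with an adjusted p of 0.0401. With 1 library left out the adjusted p in females reached 0.099 for Hsd11b1 and 0.136 for Hsd11b2, and the calls held in 17 and 9 of 24 fits. The Hsd11b2 call on the mean held in 6 of 24, with adjusted p up to 0.0843. With deprived female 5 as watered all 3 calls were lost, with adjusted p of 0.208 for Hsd11b1 and 0.492 for Hsd11b2 in females, and 0.202 for Hsd11b2 in the mean. Nr3c2, the mineralocorticoid receptor gene, had a mean difference of -0.19 ± 0.08 with an adjusted p of 0.307.

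Among 14 relatives of the members 2 were higher as a mean of both sexes, beside 1.64% of all genes called. Klf2 rose by 0.57 ± 0.12 with an adjusted p of 0.0112, and Klf4 by 0.39 ± 0.10 with 0.0423; both are Krüppel-like factors known in the endothelium, among other cells. Klf2 kept its call with any library left out, and Klf4 in 9 of 24 fits. Klf4 lost its call with deprived female 5 as watered, with an adjusted p of 0.122, and under the replicate block, with 0.0559. Beside them, 3 of 9 endothelial markers were called higher in the same mean, and their part in it was not tested. None of the 10 receptor chaperones and cochaperones and none of the 10 coregulators was called by limma with deprivation in females, in males or in the mean, with smallest adjusted p of 0.0985 and 0.21. At an unadjusted p under 0.05 there were 2, 2 and 4 chaperones and 0, 1 and 1 coregulators in these comparisons. Of the 17592 tested genes, 1711, 2041 and 2354 had such a p with limma. EdgeR called none, and DESeq2 called 1 chaperone, Stip1 in males, and no coregulator. In watered mice 7 of the 10 chaperones were higher in males, beside 30.5% of all genes called in either direction, with Hsp90aa1 up by 0.83 ± 0.08 and an adjusted p of 1.15e-08.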

How the data were processed

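Counts of polyadenylated kidney RNA in 24 mice were deposited by the authors as 1 table of normalized counts, a signal on a linear scale. Per the submitters' processing notes, Trim Galore, DESeq2, Subread and its featureCounts were used on mm10, while for aligner, annotation release and strand no setting was given in the sources used here. Dividing each deposited column by its smallest step gave whole reads for 100.0% of values (tolerance 0.01 read), and the steps equalled median-of-ratios size factors. Every gene in the table had at least 100 reads in total. Coordinates are 1-based, from GENCODE M21 on GRCm38 (mm10), in which 19300 of 19399 identifiers matched.

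Groups came from the titles. Log2(value + 1), a pseudocount of 1, was tested by limma 3.58.1 (R 4.3.3) in 1 fit of all 24 libraries with a trended, robust prior. The 17592 genes tested reached 10 in 5 or more libraries, and 1807 did not. Folds are on that scale, which understates low genes. The Benjamini-Hochberg adjusted p was called below 0.05. The p-values set a group difference against the spread between mice within groups. Whether the mice were housed or processed in batches is not known, and a batch that coincided with a group could not be told apart from it. Named genes are the 10 members, called genes of 5 lists (other targets, chaperones, hormone supply, coregulators, relatives) and the 5 genes most like Fkbp5 and Tsc22d3. Mice with the same title number were compared between groups: of 11 same-numbered pairs 2 had deviations correlated above 0.1 (range -0.0754 to 0.16). Some deprived females carry another number in their column names, so this check cannot decide whether mice were paired. The members and lists were chosen with earlier results of these data known. Alternatives were pseudocounts of 0.5 and 5, no filter, edgeR 4.0.16 and DESeq2 1.42.0 on recovered reads, TMM library sizes, array weights, a replicate block, each sex alone, leaving out 4 libraries or any single one, and moving deprived female 5. The fit was tested on simulated data.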

Additional observations from a re-analysis of the deposited data

Results flagged for a closer look

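In 40 sets of values, the 10 members in 4 groups, 3 held a mouse whose gap to its nearest neighbour was large for the range of its group (Dixon's 95% value); chance gives about 1 in 20. Zbtb16 stood at 1378 normalized counts in deprived female 3, and the next deprived female had 513. Zbtb16 stood at 794 in deprived male 3, and the next deprived male had 391. Cebpd stood at 332 in deprived male 7, one of the libraries that stand apart, and the next deprived male had 229. The mice with the high Zbtb16 also had the highest Fkbp5 and Lpin1 of their groups, at 3164 and 2122 in the female and 5435 and 2508 in the male.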

How the results depend on the processing

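Of 3659 alternative values 3372 were scored as the same and 58 changed sign. A log2 change or an r scored as the same when it kept direction and call, and a count when it stayed close to the main count. The sign changes of members were all of uncalled differences. Limma with array weights, DESeq2 and the fit without the 4 libraries called more genes: in females 1003, 364 and 765 against 139, in males 133, 157 and 141 against 40, in the mean 1165, 562 and 1240 against 289, and for the difference between the sexes 9, 30 and 9 against 0. In males alone 11 were called. With deprived female 5 as watered 2 were called in females and 120 in the mean, and no member in either. Members called in females were 2 with array weights, 2 without the 4 libraries and 0 with each sex fitted alone; in the mean they were 2 with DESeq2, 2 with array weights and 2 without the 4 libraries. Under the replicate block, which used the title numbers, 64 genes were called in males, 2 members in females and 4 in the mean (Klf9, Cebpb, Cebpd and Tsc22d3).

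Leaving out single libraries gave 66 to 215 genes in females, 22 to 65 in males, 169 to 330 in the mean and 0 to 3 for the difference between the sexes; the extremes came without watered female 2, deprived male 7, watered male 3 or deprived male 3. Members called were 0 to 1 in females, 1 to 2 in the mean and 2 to 6 between deprived sexes.

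Signs of small log2 differences turned in some fits. For the mean of both sexes, Nr3c1 was 0.0062 with array weights and 0.011 without the 4 libraries, and Errfi1 was 0.019 with the replicate block and 0.0036 without the 4 libraries. Fkbp5 was 0.036 in edgeR, 0.037 in DESeq2, 0.076 with array weights, 0.013 with the replicate block and 0.15 without the 4 libraries. With array weights, the block and without the 4 libraries, Zbtb16 in males was 0.061, 0.043 and 0.14, and the male minus female response of Cebpb was -0.12, -0.081 and -0.25. Klf9 between watered sexes was 0.028 with array weights and 0.043 without the 4 libraries, and Lpin1 in females was -0.081 with deprived female 5 as watered. The cause was not tested. With single libraries left out, the mean of both sexes ranged from -0.021 to 0.0010 for Nr3c1, -0.12 to 0.071 for Fkbp5, -0.088 to 0.23 for Zbtb16 and -0.040 to 0.038 for Errfi1. In females Zbtb16 ranged from -0.023 to 0.60, Klf15 from -0.041 to 0.086 and Lpin1 from -0.081 to 0.10. Zbtb16 in males ranged from -0.40 to 0.043, Klf9 between watered sexes from -0.061 to 0.043, and the male minus female response of Cebpd from -0.21 to 0.043. Each member had at least 104 reads in every library, the lowest being for Cebpd, and the part of counting error in the spread was not tested.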
